A study of Mus musculus with 12 samples.

Results

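The genes described here are 44 of the 60683 rows of the deposited expression table. They were taken by gene symbol: 25 genes of the ATF4 pathway, which answers stress with new transcription, and 19 genes of cytosolic aminoacyl-tRNA synthetases. The RNA came from EMT6, a mammary carcinoma line of the mouse, in 4 groups of 3 libraries. The groups were a control subclone with a non-targeting short hairpin RNA (shNTC, labelled as wild type) at 20% O2, the same subclone at 1% O2, a subclone with a hairpin against ISG20 (shISG20) at 20% O2, and that subclone at 1% O2. All were kept for 48 hours, apart from replicate 3 of shISG20 at 20% O2, which is labelled 484 hours and was kept in its group. All the cells were of one line grown in Waymouth's medium with serum and L-glutamine, and the libraries are labelled as biological replicates. The labels do not say whether these were separate cultures, so the p-values rest on a spread between samples that may be technical. With 1 subclone per hairpin, what the knockdown did and how the subclones differed cannot be told apart. The values are in TPM, a share of each library's transcripts scaled by length. The reads of these mouse cells were counted on human genes of GRCh38. A gene whose mouse sequence lies far from the human one can therefore be listed near 0, and levels are compared here between libraries, never between genes. Of the 44 genes, 43 reached 1 TPM in at least 3 of the 12 libraries and were tested; the exception was ASNS.

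Cells under amino acid shortage, protein folding stress in the endoplasmic reticulum or other stresses phosphorylate the translation factor eIF2 on its alpha subunit, through kinases that include PERK (EIF2AK3) and GCN2 (EIF2AK4). Phosphorylated eIF2 lowers general initiation of translation and raises translation of the ATF4 mRNA. ATF4 then pairs with other basic leucine zipper proteins, such as the C/EBP factors, and drives genes for amino acid synthesis, amino acid uptake and tRNA charging, together with the factors ATF5 and CHOP (DDIT3) and the phosphatase subunit GADD34 (PPP1R15A), which restores eIF2. Aminoacyl-tRNA synthetases attach each amino acid to its tRNA, and several of their genes are known ATF4 targets. Only RNA was measured in these libraries, so neither ATF4 protein nor eIF2 phosphorylation is described.

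ATF4 and its C/EBP partners bind a composite element whose core is TGATGNAA. That core was searched on both strands in the 250 bases before each annotated start of the mouse RefSeq promoters (GRCm38.p6). It is shown because this element is the known binding site of ATF4 at its targets. An entry was found for 22 of the 25 ATF4-pathway genes and for 12 of the 19 synthetase genes. The core was present in 4 of the 22 (18.2%) and in 3 of the 12 (25%), against 1056 of 27025 genes of the table (3.91%). Below are the 7 matches with up to 30 bases on either side, ending at the start site where that lies closer, written 5′ to 3′ in the direction of transcription; capitals mark the core or its reverse complement. The human symbol of the table precedes each mouse sequence.
CHAC1: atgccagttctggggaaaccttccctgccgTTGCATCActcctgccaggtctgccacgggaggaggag
ASNS: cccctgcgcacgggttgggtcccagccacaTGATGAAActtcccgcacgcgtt
PYCR1: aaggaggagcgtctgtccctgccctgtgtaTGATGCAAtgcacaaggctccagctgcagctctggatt
NUPR1: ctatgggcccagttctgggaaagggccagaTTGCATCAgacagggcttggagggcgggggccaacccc
AARS1: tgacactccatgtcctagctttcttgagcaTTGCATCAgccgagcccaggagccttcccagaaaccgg
GARS1: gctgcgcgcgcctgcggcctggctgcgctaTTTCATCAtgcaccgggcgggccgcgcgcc
TARS1: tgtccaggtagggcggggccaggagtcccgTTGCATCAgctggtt
The windows lie at chr2:119351019-119351086, plus strand (CHAC1), chr6:7693210-7693262, minus strand (ASNS), chr11:120643814-120643881, minus strand (PYCR1), chr7:126625543-126625610, minus strand (NUPR1), chr8:111033700-111033767, plus strand (AARS1), chr6:55037941-55038000, plus strand (GARS1) and chr15:11399659-11399703, minus strand (TARS1). The reverse complement TTGCATCA stood in CHAC1, NUPR1, AARS1 and TARS1, and TTTCATCA in GARS1. The match began between 15 bases (TARS1) and 193 bases (CHAC1) upstream of the start. A match describes letters in this window and not binding.

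Between 3173991 and 5201799 reads per library were recovered from the TPM values. The recovery is up to a common divisor per row, so the read numbers given for a row are lower bounds. In 5 comparisons 14389 rows were tested with limma on log2(TPM + 1), with Benjamini-Hochberg adjusted p under 0.05 as the threshold for calling a gene higher or lower. All fold changes below are on that log2 scale, where the change of a low gene appears smaller than it was. The target ISG20 averaged 2.46 ± 0.372 TPM (SD, n = 3) with shNTC against 0.225 ± 0.0942 TPM with shISG20 at 20% O2, and 8.28 ± 0.623 against 0.566 ± 0.140 TPM at 1% O2. Of the genes listed to check the oxygen label, CA9 was not tested, and VEGFA, SLC2A1, PDK1, BNIP3, NDRG1, EGLN3 and ADM rose at 1% O2 in both subclones. KRT8, KRT18 and VIM were detected in every group, EPCAM had 1 to 5 reads per group, and CDH1 and CDH2 had 0 reads. Of 4 leucocyte and 3 endothelial markers, PTPRC, CD3E, ITGAM, PECAM1, CDH5 and KDR had 0 reads. CSF1R rose at 1% O2, from 1 to 72 reads per group of shNTC and from 1 to 44 of shISG20 libraries. Of the 7 epithelial and mesenchymal markers tested at 1% against 20% O2, KRT8 (1.77 and 1.70), KRT18 (1.29 and 1.93), KRT19 (3.81 and 3.42), VIM (1.79 and 2.14) and S100A4 (0.47 and 1.37) rose in both subclones, FN1 fell (-1.47 and -0.80), and TWIST1 rose in shISG20 cells (0.96) and was at -0.06 in shNTC cells. Between the subclones at 20% O2, S100A4 (-1.29), FN1 (-0.81) and TWIST1 (-0.72) fell and KRT19 rose (0.74, lost without shNTC replicate 1 or 3 at 20% O2, with log2 0.72 to 0.73, limma adjusted p = 0.0606 to 0.063). At 1% O2 VIM rose by 0.23 and TWIST1 by 0.30 in shISG20 against shNTC cells, the latter lost without shNTC replicate 3 at 20% O2, shNTC replicate 1, 2 or 3 at 1% O2, shISG20 replicate 1, 2 or 3 at 20% O2, or shISG20 replicate 1, 2 or 3 at 1% O2 (log2 0.24 to 0.35, limma adjusted p = 0.0517 to 0.135). Interaction values were above 0 and called for TWIST1 (1.02), S100A4 (0.91), FN1 (0.67) and VIM (0.35), and both VIM calls were lost under quantile normalization. The part of these shifts in the oxygen, subclone and interaction results was not tested. In bulk RNA, fewer cells of a kind and less RNA per cell cannot be told apart. The median over all tested rows shifted by -0.28 at 1% O2 in shNTC and by -0.35 in shISG20 cells, and to 0.00 in both when the TPM values were rescaled by median-of-ratios size factors. The values below are read against that shift.

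At 1% O2 the RNA of most ATF4-pathway genes fell in both subclones. In shNTC cells 19 of the 24 tested genes fell and 1 rose, where 38.1% of all tested rows were called lower and 12.8% higher (50.9% in either direction). In shISG20 cells 21 fell and 1 rose, against 42.8% of all rows lower and 14.0% higher (56.8% in either direction). The median log2 change of the 24 was -0.85 in shNTC and -1.08 in shISG20 cells, beside -0.28 and -0.35 over all rows. The same 19 genes fell in both subclones. With median-of-ratios size factors 16 fell and 2 rose in shNTC cells (median -0.53), where that fit called 22.3% of all rows lower and 23.0% higher. In shISG20 cells it gave 20 that fell and 1 that rose (median -0.72), beside 26.6% and 26.3% of all rows. Quantile normalization called 18 lower and 2 higher in shNTC cells, beside 24.9% and 20.2% of all rows, and 20 and 1 in shISG20 cells, beside 27.5% and 23.2%. A fit to rows of mouse genes alone, by symbol or synonym, had larger shares of rows called. There 20 fell and 1 rose in shNTC cells, beside 46.2% and 16.5% of its rows. In shISG20 cells 22 fell and 1 rose, beside 51.8% and 17.7%. All 3 libraries at 1% O2 of shNTC lay below all 3 at 20% O2 for 20 of the ATF4-pathway genes and 15 of the synthetase genes, beside 43.3% of all tested rows, and above them for 1 and 1, beside 15.2%. All 3 libraries at 1% O2 of shISG20 lay below all 3 at 20% O2 for 22 of the ATF4-pathway genes and 18 of the synthetase genes, beside 46.2% of all tested rows, and above them for 1 and 1, beside 15.9%.

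ATF4 itself (ENSG00000128272) stood at 565, 595 and 607 TPM at 20% O2 and 309, 309 and 282 TPM at 1% O2 in shNTC cells. ATF4 in shISG20 cells stood at 689, 713 and 699 TPM at 20% O2 and 235, 229 and 241 TPM at 1% O2. Every library at 1% O2 lay below every library at 20% O2. The change was -0.97 (SE 0.045, limma adjusted p = 2.71e-08) in shNTC cells and -1.57 (SE 0.045, limma adjusted p = 5.53e-10) in shISG20 cells. ATF5 (ENSG00000169136), a related leucine zipper factor whose translation is also favoured when eIF2 is phosphorylated, stood at 158, 167 and 162 TPM at 20% O2 and 18.9, 22.4 and 18.1 TPM at 1% O2 in shNTC cells. ATF5 in shISG20 cells stood at 161, 188 and 179 TPM at 20% O2 and 24.99, 18.1 and 19.3 TPM at 1% O2. Its change was the lowest log2 value of the list in each subclone, -2.98 (SE 0.117, limma adjusted p = 7.77e-09) and -3.03 (SE 0.117, limma adjusted p = 4.74e-09). The levels at 1% O2 overlapped between the subclones, and so did those at 20% O2. DDIT3 (ENSG00000175197), which encodes the pro-apoptotic factor CHOP, stood at 621, 669 and 606 TPM at 20% O2 and 479, 454 and 592 TPM at 1% O2 in shNTC cells. DDIT3 in shISG20 cells stood at 591, 657 and 607 TPM at 20% O2 and 357, 327 and 372 TPM at 1% O2. It fell by 0.32 in shNTC cells (SE 0.091, limma adjusted p = 0.0123), with all 3 libraries at 1% O2 below those at 20% O2, and by 0.81 in shISG20 cells (SE 0.091, limma adjusted p = 1.79e-05). The shNTC value turned to 0.02 with median-of-ratios size factors (limma adjusted p = 0.896), and its call was lost without shNTC replicate 2 at 1% O2 (log2 -0.24, limma adjusted p = 0.0513). CEBPB and CEBPG, the C/EBP partners of ATF4, fell in both subclones (-1.03 and -1.26 for CEBPB, -1.11 and -1.26 for CEBPG). TRIB3, a pseudokinase that is an ATF4 target and damps its activity, went from 17.3 ± 0.481 to 7.19 ± 1.45 TPM in shNTC (-1.17) and from 17.7 ± 1.10 to 5.33 ± 0.470 TPM in shISG20 cells (-1.56), and fell in both. NUPR1, a small stress-induced chromatin protein, had 32 to 70 reads per group. Its values of -0.69 and -0.73 missed the threshold (limma adjusted p = 0.0813 and 0.0609). The NUPR1 value in shISG20 cells was called lower by limma voom on the recovered reads and in the fit to rows of mouse genes alone.

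**Figure D1:**
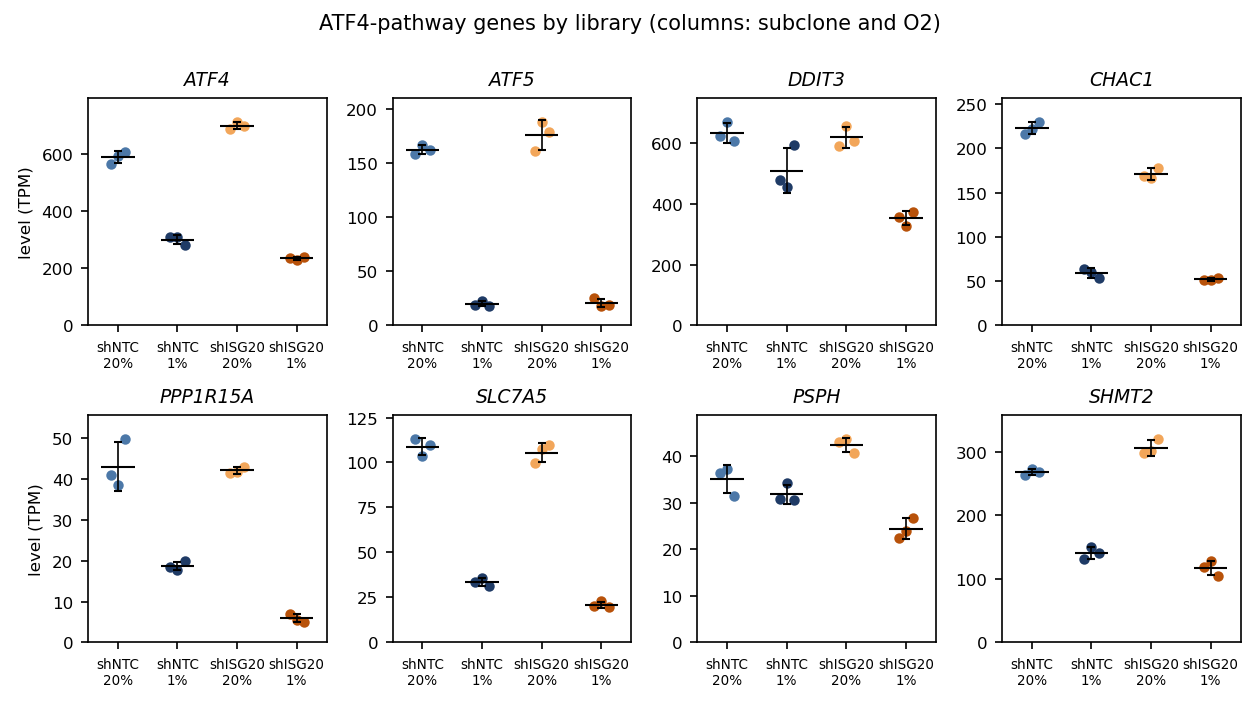
Level in TPM (vertical axis, from 0) of 8 ATF4-pathway genes in each of the 12 libraries, by subclone and O2 level on the horizontal axis; points are libraries, and bars show the mean and SD over 3 libraries. ATF5 went from means of 162 and 176 TPM at 20% O2 to 19.8 and 20.8 TPM at 1% O2, while PPP1R15A at 1% O2 averaged 18.7 TPM with shNTC and 5.86 TPM with shISG20.

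Genes of the eIF2 branch moved in different directions. EIF2S1, the alpha subunit of eIF2 that the stress kinases phosphorylate, fell by 0.69 in both subclones (SE 0.056, limma adjusted p = 1.94e-06 and 1.43e-06). PPP1R15A (ENSG00000087074), the inducible subunit that directs protein phosphatase 1 to eIF2 alpha, stood at 40.9, 38.4 and 49.8 TPM at 20% O2 and 18.5, 17.8 and 19.8 TPM at 1% O2 in shNTC cells. PPP1R15A in shISG20 cells stood at 41.5, 41.8 and 43.1 TPM at 20% O2 and 6.96, 5.56 and 5.07 TPM at 1% O2. No library at 1% O2 reached the lowest one at 20% O2, and the shISG20 libraries at 1% O2 were the lowest of all. The change was -1.15 (SE 0.119, limma adjusted p = 1.13e-05) in shNTC and -2.66 (SE 0.119, limma adjusted p = 1.45e-08) in shISG20 cells. PPP1R15B, the constitutive counterpart, fell in shISG20 cells (-1.01, limma adjusted p = 0.000155) and had a value of -0.29 in shNTC cells that missed the threshold (limma adjusted p = 0.13). Neither kinase gene was called lower. EIF2AK3 (PERK) rose in shNTC cells from 3.12 ± 0.244 to 5.67 ± 0.789 TPM, on 73 and 175 reads (0.69, limma adjusted p = 0.0258), and was at 0.14 in shISG20 cells (limma adjusted p = 0.635). That call was lost without shNTC replicate 1 or 3 at 20% O2, or shNTC replicate 1 or 2 at 1% O2 (log2 0.60 to 0.71, limma adjusted p = 0.0518 to 0.0878). EIF2AK4 (GCN2), the sensor of uncharged tRNA, stood at 9.72, 9.77 and 11.3 TPM at 20% O2 and 10.6, 11.7 and 12.3 TPM at 1% O2 in shNTC cells. EIF2AK4 in shISG20 cells stood at 7.72, 7.61 and 7.98 TPM at 20% O2 and 9.39, 10.7 and 9.42 TPM at 1% O2. It rose in shISG20 cells (0.30, limma adjusted p = 0.0242), where the libraries at 1% O2 all lay above those at 20% O2, and was at 0.16 in shNTC cells, whose libraries overlapped (limma adjusted p = 0.227). With median-of-ratios size factors, quantile normalization or limma voom on the recovered reads, EIF2AK4 was called higher in shNTC cells as well. The shISG20 call was lost without shISG20 replicate 1 or 2 at 20% O2, or shISG20 replicate 2 at 1% O2 (log2 0.25 to 0.30, limma adjusted p = 0.0562 to 0.082). CHAC1 (ENSG00000128965), a glutathione-degrading enzyme whose mouse promoter carries the core printed above, stood at 216, 222 and 229.9 TPM at 20% O2 and 64.0, 59.9 and 53.7 TPM at 1% O2 in shNTC cells. CHAC1 in shISG20 cells stood at 168, 166 and 178 TPM at 20% O2 and 50.8, 51.1 and 53.7 TPM at 1% O2. The 2 oxygen levels were far apart in each subclone, with changes of -1.90 (SE 0.065, limma adjusted p = 3.06e-09) and -1.70 (SE 0.065, limma adjusted p = 4.38e-09). SESN2, a leucine sensor that restrains mTORC1, fell by 0.50 and 1.18 (limma adjusted p = 0.0113 and 2.66e-05), the first of which was no longer called with median-of-ratios size factors (-0.16, limma adjusted p = 0.342).

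Of the 5 genes of serine and one-carbon synthesis, 4 fell in shNTC and 5 in shISG20 cells, beside 38.1% and 42.8% of all rows called lower. PHGDH, the first enzyme of the serine pathway, had values of -0.76 and -0.77, PSAT1, the transaminase after it, -0.53 and -0.45, and MTHFD2, the mitochondrial folate dehydrogenase, -1.20 and -1.15 in shNTC and shISG20 cells, all called lower; the PSAT1 calls were lost with median-of-ratios size factors (-0.19 and -0.032). SHMT2, which turns serine into glycine in mitochondria, stood at 264, 273 and 269 TPM at 20% O2 and 132, 149.9 and 140.3 TPM at 1% O2 in shNTC cells. SHMT2 in shISG20 cells stood at 298, 301 and 321 TPM at 20% O2 and 119, 128 and 105 TPM at 1% O2. It fell by 0.93 and 1.38 (limma adjusted p = 1.26e-06 and 4.19e-08), with no overlap between oxygen levels in either subclone. PSPH, the phosphatase of the last serine step, stood at 36.4, 37.3 and 31.6 TPM at 20% O2 and 30.7, 34.2 and 30.6 TPM at 1% O2 in shNTC cells. PSPH in shISG20 cells stood at 43.0, 43.7 and 40.8 TPM at 20% O2 and 22.5, 24.0 and 26.8 TPM at 1% O2. In shNTC cells the oxygen levels overlapped and the value of -0.13 missed the threshold (limma adjusted p = 0.241), while in shISG20 cells every library at 1% O2 was below those at 20% O2 (-0.78, limma adjusted p = 2.17e-05). Both proline synthesis genes fell in both subclones, beside the same shares of all rows. ALDH18A1, the enzyme of the first steps, fell by 0.70 and 0.91, and PYCR1, the last enzyme in mitochondria, by 1.30 and 0.87 (limma adjusted p = 6.69e-05 and 0.000976). The shISG20 call of PYCR1 was lost under quantile normalization, at -0.44. ASNS, asparagine synthetase, had 4 reads in the 12 libraries together and was not tested.

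All 3 amino acid transporter genes fell in both subclones, beside 38.1% of all rows called lower in shNTC and 42.8% in shISG20 cells. SLC7A5 (ENSG00000103257), the light chain of the LAT1 exchanger that imports leucine and other large neutral amino acids, stood at 113, 103 and 109.9 TPM at 20% O2 and 33.6, 35.8 and 31.3 TPM at 1% O2 in shNTC cells. SLC7A5 in shISG20 cells stood at 99.5, 107 and 109.5 TPM at 20% O2 and 20.3, 22.8 and 19.6 TPM at 1% O2. The groups at 1% O2 did not overlap with those at 20% O2, nor with each other. The change was -1.67 (SE 0.076, limma adjusted p = 2.51e-08) in shNTC and -2.29 (SE 0.076, limma adjusted p = 1.61e-09) in shISG20 cells. SLC3A2, the heavy chain that pairs with SLC7A5, had smaller log2 values of -0.66 and -0.91 (limma adjusted p = 1.2e-05 and 6.85e-07), from 55.4 ± 3.27 TPM at 20% O2 to 34.7 ± 1.68 TPM at 1% O2 in shNTC cells. SLC1A5, the glutamine carrier ASCT2, fell from 41.7 ± 2.74 to 8.94 ± 1.40 TPM in shNTC cells and from 40.1 ± 2.19 to 8.12 ± 1.09 TPM in shISG20 cells (-2.11 and -2.18, limma adjusted p = 1.31e-07 and 7.49e-08).

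Most synthetase genes were also called lower at 1% O2, by different amounts. In shNTC cells 15 of 19 fell and 1 rose, and in shISG20 cells 17 fell and 1 rose, beside the 38.1% and 42.8% of all rows called lower. Their median log2 change was -0.50 in shNTC and -0.79 in shISG20 cells. With median-of-ratios size factors 11 fell and 4 rose in shNTC cells (median -0.16) and 11 fell and 2 rose in shISG20 cells (median -0.37). The shares of all rows in that fit were 22.3% lower and 23.0% higher in shNTC and 26.6% and 26.3% in shISG20 cells. With quantile normalization 14 fell and 2 rose in shNTC and 16 and 1 in shISG20 cells, beside 24.9% and 27.5% of all rows lower. The fit to rows of mouse genes alone gave 15 and 1, and 16 and 1, beside 46.2% and 51.8% of its rows lower. Under the median-of-ratios fit the small falls of KARS1, SARS1, VARS1, GARS1 and FARSA became values above 0 in at least 1 subclone. FARSB (ENSG00000116120), the beta subunit of the phenylalanine enzyme, stood at 114, 122 and 118 TPM at 20% O2 and 38.8, 37.3 and 35.5 TPM at 1% O2 in shNTC cells. FARSB in shISG20 cells stood at 123, 119.7 and 123 TPM at 20% O2 and 36.1, 41.9 and 41.0 TPM at 1% O2. The oxygen levels were widely separated in both subclones, at -1.64 (SE 0.065, limma adjusted p = 8.26e-09) and -1.60 (SE 0.065, limma adjusted p = 7.2e-09). FARSA, the alpha subunit of the same enzyme, was at 94.7 ± 8.85 and 87.3 ± 6.09 TPM in shNTC cells (-0.12, limma adjusted p = 0.423) and fell from 90.4 ± 12.2 to 68.4 ± 6.84 TPM in shISG20 cells (-0.39, limma adjusted p = 0.0107). TARS1 (ENSG00000113407), the threonine enzyme, whose mouse promoter holds the core 15 bases from the start, stood at 183, 184 and 178 TPM at 20% O2 and 64.0, 67.2 and 60.6 TPM at 1% O2 in shNTC cells. TARS1 in shISG20 cells stood at 160.3, 160.5 and 169.7 TPM at 20% O2 and 49.6, 48.7 and 57.6 TPM at 1% O2. It fell by 1.49 and 1.64 (limma adjusted p = 2.41e-08 and 8.28e-09), with no overlap between oxygen levels. YARS1 (ENSG00000134684), for tyrosine, stood at 124, 122 and 122 TPM at 20% O2 and 59.3, 59.3 and 58.3 TPM at 1% O2 in shNTC cells. YARS1 in shISG20 cells stood at 157, 158 and 157 TPM at 20% O2 and 60.9, 58.4 and 58.4 TPM at 1% O2. Its spread within groups was small, and it fell by 1.04 (SE 0.041, limma adjusted p = 8.26e-09) and by 1.39 (limma adjusted p = 7.21e-10).

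LARS1, which charges leucine, stood at 44.6, 43.3 and 43.0 TPM at 20% O2 and 13.8, 16.1 and 14.1 TPM at 1% O2 in shNTC cells. LARS1 in shISG20 cells stood at 48.1, 46.6 and 49.2 TPM at 20% O2 and 8.01, 10.8 and 8.21 TPM at 1% O2. Its shISG20 change of -2.30 was the lowest of the 19 in that subclone, and its shNTC change was -1.51 (limma adjusted p = 1.89e-08 and 6e-07). WARS1, for tryptophan, stood at 68.3, 65.4 and 68.0 TPM at 20% O2 and 35.0, 38.9 and 39.8 TPM at 1% O2 in shNTC cells. WARS1 in shISG20 cells stood at 84.7, 90.6 and 89.5 TPM at 20% O2 and 23.7, 27.3 and 22.9 TPM at 1% O2. The 4 groups were all separate from each other, and the oxygen changes were -0.81 (SE 0.077, limma adjusted p = 5.97e-06) in shNTC and -1.80 (SE 0.077, limma adjusted p = 1.01e-08) in shISG20 cells. AARS1, for alanine, stood at 551, 589 and 584 TPM at 20% O2 and 345, 352 and 321 TPM at 1% O2 in shNTC cells. AARS1 in shISG20 cells stood at 494, 580.3 and 553 TPM at 20% O2 and 208, 227 and 217 TPM at 1% O2. It fell by 0.76 and 1.31 (limma adjusted p = 2.22e-06 and 2.44e-08). NARS1, for asparagine, stood at 326, 344 and 331 TPM at 20% O2 and 239, 243 and 224 TPM at 1% O2 in shNTC cells. NARS1 in shISG20 cells stood at 348, 346 and 339 TPM at 20% O2 and 185, 182 and 185 TPM at 1% O2. The subclones overlapped at 20% O2 and were apart at 1% O2, with falls of 0.50 and 0.90 (limma adjusted p = 1.64e-06 and 1.41e-08). IARS1, for isoleucine, fell by 1.14 and 1.37, and HARS1, for histidine, by 0.69 and 0.99. EPRS1, the fused glutamate and proline enzyme, fell by 0.94 in shNTC and 0.75 in shISG20 cells. RARS1 (arginine) had called values of -0.48 and -0.79, and MARS1 (methionine) of -0.41 and -0.65; the rescaling ended both shNTC calls and the shISG20 call of MARS1.

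SARS1, for serine, stood at 1743, 1750.2 and 1762 TPM at 20% O2 and 1524, 1519 and 1483 TPM at 1% O2 in shNTC cells. SARS1 in shISG20 cells stood at 1898, 1873 and 1899.5 TPM at 20% O2 and 1330.3, 1359 and 1383 TPM at 1% O2. Its falls of 0.22 and 0.48 were small but beyond its spread (SE 0.024, limma adjusted p = 1.87e-05 and 3.06e-08). With median-of-ratios size factors, however, the shNTC value turned to 0.13 and was called higher, and the shISG20 call was lost. VARS1, for valine, stood at 204, 204 and 218 TPM at 20% O2 and 146, 158 and 146 TPM at 1% O2 in shNTC cells. VARS1 in shISG20 cells stood at 246, 255 and 249.9 TPM at 20% O2 and 182, 202 and 183 TPM at 1% O2. It fell by 0.48 and 0.41 (limma adjusted p = 2.65e-05 and 7.11e-05), and the second of these turned to 0.015 under that rescaling. KARS1, for lysine, fell by 0.33 in both subclones, values that became 0.007 and 0.094 under it. GARS1, for glycine, was at -0.01 in shNTC cells (limma adjusted p = 0.851) with the core in its promoter, and fell by 0.20 in shISG20 cells, values that turned to 0.33 and 0.23 under the rescaling. The shNTC value of GARS1 was among those called higher in that fit. CARS1, for cysteine, was not called here (0.09 and -0.19 with oxygen, limma adjusted p = 0.444 and 0.0954), but its shNTC value was called higher with median-of-ratios size factors (0.41), quantile normalization (0.40) and voom (0.24), and voom also called it higher in shISG20 cells at 20% O2 (0.26). QARS1, for glutamine, was the synthetase called higher in both subclones. It stood at 32.1, 38.4 and 39.3 TPM at 20% O2 and 60.7, 56.7 and 52.5 TPM at 1% O2 in shNTC cells. QARS1 in shISG20 cells stood at 39.5, 34.4 and 39.1 TPM at 20% O2 and 55.4, 57.1 and 55.5 TPM at 1% O2. The oxygen levels did not overlap, and the rise was 0.62 (SE 0.09, limma adjusted p = 0.000164) and 0.56 (SE 0.09, limma adjusted p = 0.000261). Among the 7 genes with the core in the promoter, the log2 changes in shNTC cells were thus -1.90 for CHAC1, -1.30 for PYCR1, -0.76 for AARS1 and -1.49 for TARS1, all called lower, -0.69 for NUPR1 and -0.01 for GARS1, neither called, and none for ASNS. With or without the core, 19 of the 24 tested ATF4-pathway genes and 15 of the 19 synthetase genes fell in these cells. Whether genes with the core differed from the others was not tested.

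**Figure D2:**
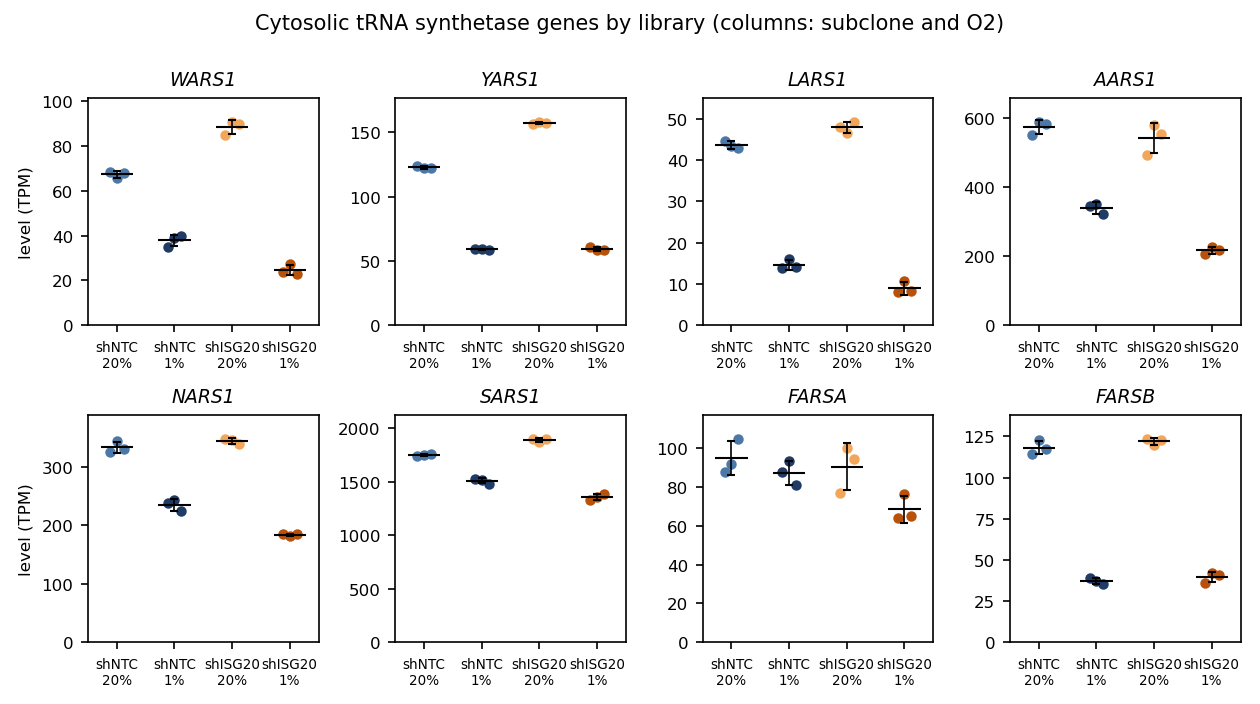
Level in TPM (vertical axis, from 0) of 8 synthetase genes in each of the 12 libraries, by subclone and O2 level on the horizontal axis; points are libraries, and bars show the mean and SD over 3 libraries. WARS1 was higher in shISG20 than in shNTC cells at 20% O2 (88.2 against 67.2 TPM) and lower at 1% O2 (24.6 against 37.9 TPM).

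**Figure D3:**
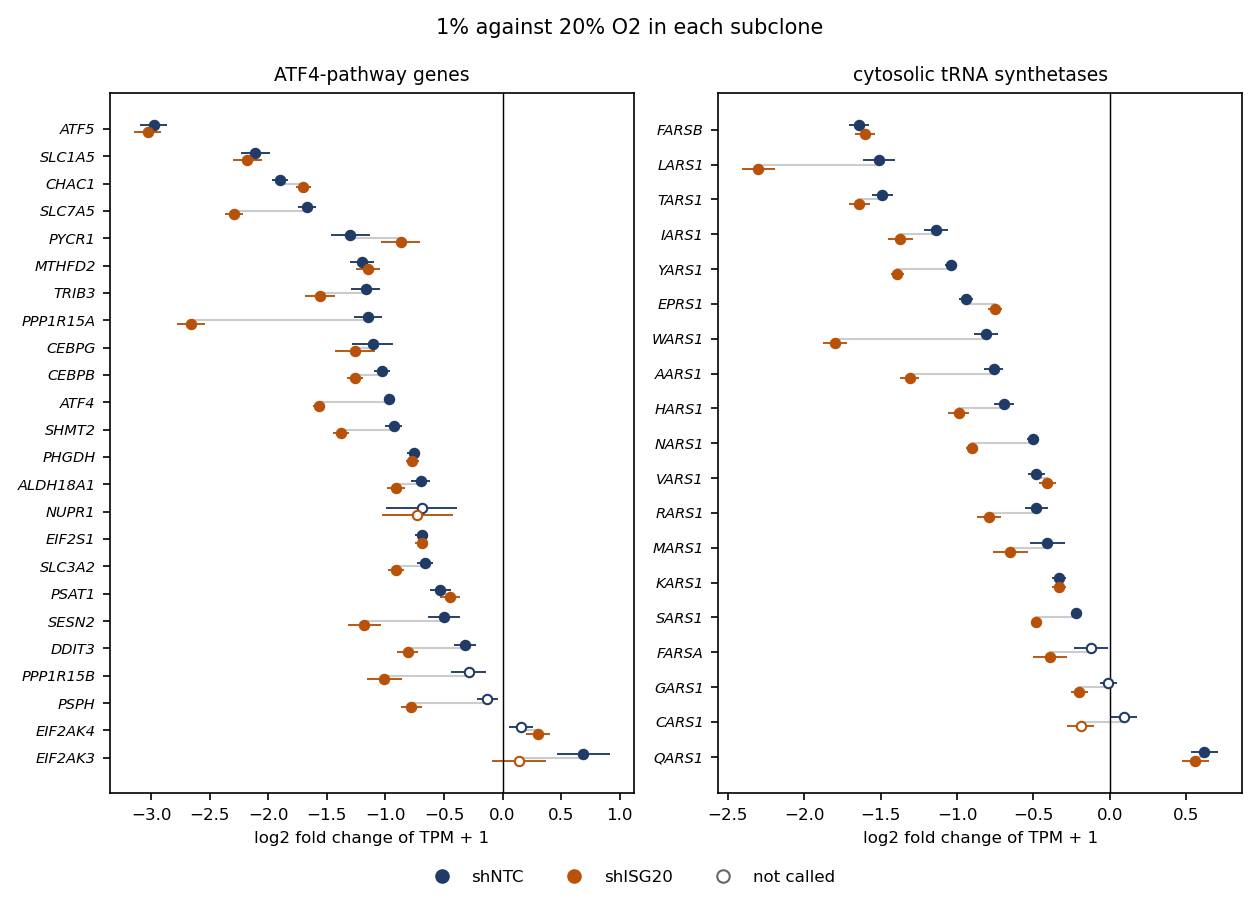
Log2 fold change of TPM + 1 at 1% against 20% O2 (horizontal axis) for the 43 tested genes in shNTC and shISG20 cells, with bars of 1 SE from limma; filled points were called and open points were not. Most points lie left of 0, from -3.03 for ATF5, and QARS1 lies right of 0 at 0.62 and 0.56.

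At 20% O2, 7 synthetase genes were higher in shISG20 cells, while by limma on log2(TPM + 1) the calls of ATF4-pathway genes were near the share over all rows. In shISG20 against shNTC cells 1 of 24 ATF4-pathway genes rose (4.17%) and 2 fell (8.33%). Of all tested rows 5.05% were called higher and 6.55% lower (11.6% in either direction). The median log2 difference of the ATF4-pathway genes was 0.04 beside 0.01 over all rows. All 3 libraries of shISG20 lay below all 3 of shNTC for 3 of the ATF4-pathway genes and 1 of the synthetase genes, beside 15.0% of all tested rows, and above them for 7 and 12, beside 16.2%. Voom called 7 ATF4-pathway genes in either direction, beside 17.2% of all rows, and a fit to rows of mouse genes alone 7, beside 19.8% of its rows. By direction, voom called 5 higher and 2 lower, beside 8.68% and 8.55% of all rows. The fit to rows of mouse genes alone called 4 higher and 3 lower, beside 8.83% and 11% of its rows. Of the synthetase genes 7 of 19 rose and 0 fell, with a median of 0.13; at an unadjusted p under 0.05, 1 was lower and 10 higher, and limma voom on the recovered reads called 1 lower and 10 higher, beside 8.55% and 8.68% of all rows. ATF4 was higher in shISG20 cells by 0.25 (SE 0.045, limma adjusted p = 0.00517), at 700.2 ± 11.9 against 589 ± 21.6 TPM (SD, n = 3), with no overlap between the libraries. CHAC1 fell with a value of -0.38 (SE 0.065, limma adjusted p = 0.00396), at 171 ± 6.39 against 223 ± 6.81 TPM, also without overlap. EIF2AK4 fell with a value of -0.36, limma adjusted p = 0.0446, a call that was lost without shNTC replicate 1, 2 or 3 at 20% O2, shNTC replicate 1 or 2 at 1% O2, shISG20 replicate 1, 2 or 3 at 20% O2, or shISG20 replicate 1 or 3 at 1% O2 (log2 -0.39 to -0.29, limma adjusted p = 0.0509 to 0.148). ATF5 and DDIT3 overlapped between the subclones, with values of 0.11 and -0.03 (limma adjusted p = 0.611 and 0.879). The other ATF4-pathway genes were not called, with values from -0.19 for CEBPB to 0.42 for SESN2.

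The synthetase genes that rose at 20% O2 were YARS1 (0.36, SE 0.041, limma adjusted p = 0.000386), WARS1 (0.39, SE 0.077, limma adjusted p = 0.00859), VARS1 (0.26, SE 0.055, limma adjusted p = 0.0113), RARS1, KARS1, EPRS1 and SARS1. For YARS1, WARS1 and VARS1, every shISG20 library at 20% O2 lay above every shNTC library. EPRS1 stood at 279, 278 and 259 TPM at 20% O2 and 142, 143 and 138 TPM at 1% O2 in shNTC cells. EPRS1 in shISG20 cells stood at 314, 310.1 and 299 TPM at 20% O2 and 177, 192 and 179 TPM at 1% O2. It differed by 0.18 at 20% O2 (limma adjusted p = 0.0337), without overlap at either oxygen level. RARS1, KARS1 and SARS1 differed by 0.26, 0.19 and 0.11 (limma adjusted p = 0.0474, 0.0203 and 0.013). The call of EPRS1 was lost without shNTC replicate 1, 2 or 3 at 20% O2, or shISG20 replicate 1, 2 or 3 at 20% O2 (log2 0.14 to 0.20, limma adjusted p = 0.0522 to 0.115). That of KARS1 was lost without shNTC replicate 1 or 2 at 20% O2, or shISG20 replicate 1 or 3 at 20% O2 (log2 0.18 to 0.20, limma adjusted p = 0.053 to 0.0701), and that of RARS1 without shNTC replicate 1, 2 or 3 at 20% O2, shNTC replicate 2 at 1% O2, shISG20 replicate 1, 2 or 3 at 20% O2, or shISG20 replicate 3 at 1% O2 (log2 0.23 to 0.29, limma adjusted p = 0.0557 to 0.144). Without replicate 1 or 2 of shNTC or replicate 1 or 3 of shISG20 at 20% O2, 4 synthetase genes were called, and with no variance trend 3, beside 10.0% of all rows, where EPRS1, KARS1, RARS1 and SARS1 were lost. Of the 12 not called, the lowest value was -0.15 for TARS1 and the highest 0.28 for MARS1.

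At 1% O2 more of these genes were lower in the shISG20 subclone. Of the ATF4-pathway genes 8 of 24 fell and 1 rose, against 9.66% of all tested rows lower and 4.25% higher (13.9% in either direction), and their median was -0.20 beside -0.07 over all rows. Of the synthetase genes 7 fell and 3 rose, with a median of -0.05. With median-of-ratios size factors 7 ATF4-pathway genes fell and 3 rose, and 4 synthetase genes fell and 3 rose, beside 7.53% of all rows lower and 7.15% higher in that fit, where SHMT2, HARS1, TARS1 and SARS1 lost their calls. All 3 libraries of shISG20 lay below all 3 of shNTC for 10 of the ATF4-pathway genes and 8 of the synthetase genes, beside 20.2% of all tested rows, and above them for 3 and 3, beside 11.0%. A fit to only the 6 libraries compared called 5 and 6 in either direction, beside 6.65% of all rows, and lost PSPH, SHMT2, SLC3A2, PSAT1, LARS1, HARS1, TARS1 and KARS1. The fit to rows of mouse genes alone called 17.5% of its rows lower and 6.48% higher. There 9 ATF4-pathway genes fell and 2 rose, and 8 synthetase genes fell and 3 rose. PPP1R15A had the lowest value of both lists, -1.53 (SE 0.119, limma adjusted p = 5.15e-05), with a mean of 5.86 ± 0.981 TPM in shISG20 against 18.7 ± 1.03 TPM in shNTC cells (SD, n = 3). SLC7A5 fell by 0.66 (SE 0.076, limma adjusted p = 0.000454), and its partner chain SLC3A2 by 0.33 (limma adjusted p = 0.00993). ATF4 fell by 0.35 (SE 0.045, limma adjusted p = 0.000862), where it had been higher in the same subclone at 20% O2. DDIT3 fell by 0.52 (limma adjusted p = 0.00428) and CEBPB by 0.42 (limma adjusted p = 0.00348). PSPH and SHMT2 fell by 0.37 and 0.26 (limma adjusted p = 0.0203 and 0.0333), while PSAT1, of the same serine pathway, rose by 0.34 (limma adjusted p = 0.0285). The call of PSPH was lost without shNTC replicate 2 at 1% O2, or shISG20 replicate 1 at 1% O2 (log2 -0.32 to -0.31, limma adjusted p = 0.0741 to 0.0811). That of SHMT2 was lost without shNTC replicate 2 or 3 at 1% O2, or shISG20 replicate 1 or 3 at 1% O2 (log2 -0.28 to -0.19, limma adjusted p = 0.0677 to 0.121), and that of PSAT1 without shNTC replicate 2 or 3 at 1% O2, or shISG20 replicate 2 or 3 at 1% O2 (log2 0.27 to 0.35, limma adjusted p = 0.0537 to 0.0999). ATF5 and CHAC1 overlapped between the subclones at 1% O2 (0.06, limma adjusted p = 0.8, and -0.18, limma adjusted p = 0.0891).

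Among the synthetase genes at 1% O2, AARS1 fell by 0.64 (SE 0.063, limma adjusted p = 0.00019), from 339.5 ± 16.1 to 217 ± 9.79 TPM. NARS1 fell by 0.35 (SE 0.04, limma adjusted p = 0.000411). WARS1 and LARS1 fell by 0.60 and 0.65 (limma adjusted p = 0.000768 and 0.00302), and TARS1, HARS1 and SARS1 by 0.30, 0.28 and 0.15. The 3 that rose were EPRS1 (0.37, SE 0.047, limma adjusted p = 0.000733), VARS1 (0.33) and KARS1 (0.20), and these also rose at 20% O2. WARS1 and SARS1 were higher in shISG20 cells at 20% O2 and lower at 1% O2. YARS1, with the smallest p of the list at 20% O2, was at 59.2 ± 1.44 against 59.0 ± 0.578 TPM at 1% O2, a difference of 0.01 (limma adjusted p = 0.954). The call of HARS1 was lost without shNTC replicate 1 or 3 at 1% O2, or shISG20 replicate 1 at 1% O2 (log2 -0.25 to -0.23, limma adjusted p = 0.0558 to 0.0684). That of TARS1 was lost without shNTC replicate 2 at 1% O2, or shISG20 replicate 1 at 1% O2 (log2 -0.27 to -0.26, limma adjusted p = 0.0598 to 0.0657), and that of KARS1 without shISG20 replicate 3 at 1% O2 (log2 0.17, limma adjusted p = 0.0604). With no variance trend SARS1, KARS1, SHMT2 and PSAT1 lost their calls.

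**Figure D4:**
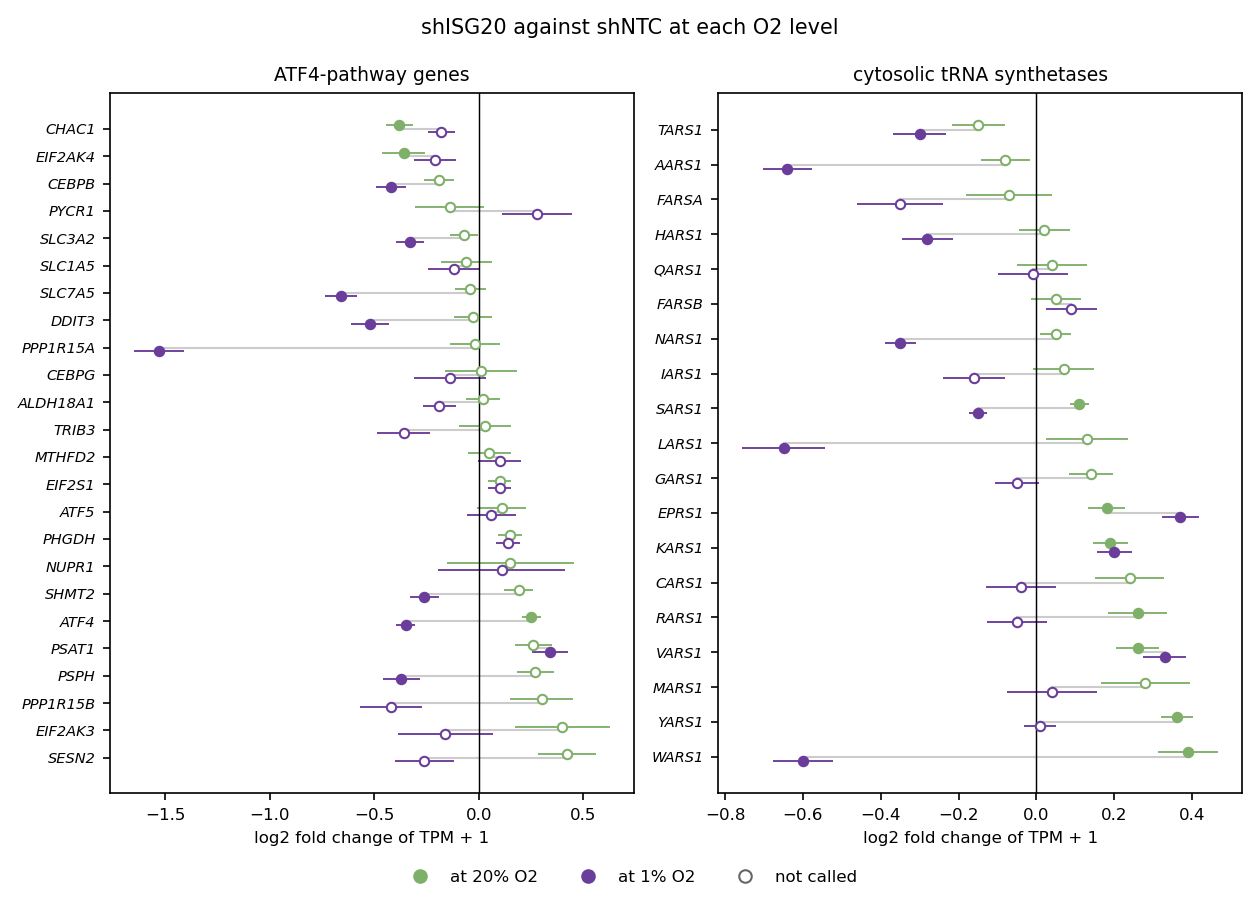
Log2 fold change of TPM + 1 in shISG20 against shNTC cells (horizontal axis) for the 43 tested genes at 20% O2 and at 1% O2, with bars of 1 SE from limma; filled points were called and open points were not. PPP1R15A moves from -0.02 at 20% O2 to -1.53 at 1% O2, and WARS1 from 0.39 to -0.60.

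Whether the oxygen change differed between the subclones was tested with the interaction term, which is the change in shISG20 minus the change in shNTC cells. It was called below 0 for 6 of 24 ATF4-pathway genes and 6 of 19 synthetase genes, and above 0 for 0 of either list, where 4.31% of all tested rows were below and 2.62% above 0 (6.93% in either direction). At an unadjusted p under 0.05, 0 ATF4-pathway genes and 1 synthetase gene were above 0, and limma voom called 0 and 1; the median-of-ratios fit called 1 synthetase gene above and 6 below 0, beside 4.14% and 3.17% of all rows. The medians were -0.22 and -0.26, beside -0.09 over all rows. The ATF4-pathway genes were PPP1R15A (-1.51, SE 0.168, limma adjusted p = 0.00109), PSPH (-0.64, limma adjusted p = 0.0142), SLC7A5 (-0.62, limma adjusted p = 0.00833), ATF4 (-0.60, limma adjusted p = 0.001), DDIT3 (-0.49, limma adjusted p = 0.0469) and SHMT2 (-0.45, limma adjusted p = 0.0246). The call of DDIT3 was lost without shNTC replicate 1, 2 or 3 at 20% O2, shNTC replicate 1 at 1% O2, shISG20 replicate 1, 2 or 3 at 20% O2, or shISG20 replicate 1, 2 or 3 at 1% O2 (log2 -0.53 to -0.44, limma adjusted p = 0.0599 to 0.103). That of SHMT2 was lost without shNTC replicate 1 or 3 at 20% O2, shNTC replicate 2 at 1% O2, or shISG20 replicate 2 or 3 at 20% O2 (log2 -0.47 to -0.41, limma adjusted p = 0.0513 to 0.0615). The synthetase genes were WARS1 (-0.99, SE 0.109, limma adjusted p = 0.00105), LARS1 (-0.79, limma adjusted p = 0.0125), AARS1 (-0.56, limma adjusted p = 0.00567), NARS1 (-0.40, limma adjusted p = 0.00331), YARS1 (-0.35, limma adjusted p = 0.00701) and SARS1 (-0.26, limma adjusted p = 0.00192). ATF5, with the largest fall at 1% O2 of the ATF4-pathway list in both subclones, had an interaction value of -0.05 (SE 0.165, limma adjusted p = 0.89), and FARSB one of 0.04 (limma adjusted p = 0.832). With no variance trend the calls of DDIT3, SHMT2 and SARS1 were lost. The fit to rows of mouse genes alone called 9.84% of its rows below and 5.37% above 0. There 8 ATF4-pathway genes were below and 0 above 0, and 6 synthetase genes below and 1 above. The oxygen comparisons, the comparisons between subclones and the interaction are built from the same 4 groups and so share their libraries.

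Other targets of ATF4 outside the 44 genes moved both ways with oxygen. Of 26 listed, 20 were tested; at 1% O2 14 fell and 4 rose in shNTC cells, beside 38.1% and 12.8% of all rows, and the same numbers fell and rose in shISG20 cells, beside 42.8% and 14.0%. Their median log2 changes were -1.05 and -1.12. GADD45A, a growth arrest gene, fell from 1201 ± 36.5 to 444 ± 18.2 TPM in shNTC cells (-1.43 and -1.57 in shNTC and shISG20), SLC6A9, the glycine transporter GLYT1, fell by 1.55 and 1.85, and GPT2, the mitochondrial alanine aminotransferase, by 1.26 and 1.42. DDIT4, an inhibitor of mTORC1 that is also a target of the hypoxia-inducible factor, rose from 127 ± 6.87 to 570.3 ± 32.9 TPM in shNTC cells (2.15, limma adjusted p = 3.06e-09) and by 1.44 in shISG20 cells. Between the subclones, 3 rose and 0 fell at 20% O2 (1 was lower with an unadjusted p below 0.05, and voom called 2), beside 5.05% and 6.55% of all rows, namely GADD45A (0.31), DDIT4 (0.42) and TXNIP (0.56), and the call of TXNIP was lost without shNTC replicate 1, 2 or 3 at 20% O2, shNTC replicate 2 at 1% O2, shISG20 replicate 1, 2 or 3 at 20% O2, or shISG20 replicate 1 or 3 at 1% O2 (log2 0.49 to 0.62, limma adjusted p = 0.0524 to 0.141). The 4 that rose at 1% O2 were DDIT4, MTHFD1L and EIF4EBP1 in both subclones, SLC7A11 in shNTC cells (0.43, a call lost without shNTC replicate 2 at 20% O2, or shNTC replicate 2 at 1% O2, with log2 0.32 to 0.36, limma adjusted p = 0.0964 to 0.105) and PCK2 in shISG20 cells. MTHFD1L, of mitochondrial folate metabolism, had values of 1.34 and 0.84, EIF4EBP1, which represses translation, 0.37 and 0.45, and PCK2, the mitochondrial PEP carboxykinase, 0.31 (lost without shISG20 replicate 3 at 20% O2, with log2 0.27, limma adjusted p = 0.0525); these were named after their values were seen. Between the subclones at 1% O2 5 fell and 1 rose, beside 9.66% and 4.25% of all rows. JDP2, a leucine zipper repressor, was the one that rose (0.53, lost without shNTC replicate 2 or 3 at 1% O2, or shISG20 replicate 3 at 1% O2, with log2 0.40 to 0.55, limma adjusted p = 0.0548 to 0.0649). Those that fell were DDIT4 (-0.30, lost without shNTC replicate 3 at 1% O2, or shISG20 replicate 3 at 1% O2, with log2 -0.25 to -0.23, limma adjusted p = 0.073 to 0.074), SLC6A9 (-0.32, lost without shNTC replicate 1 or 2 at 1% O2, or shISG20 replicate 1 or 3 at 1% O2, with log2 -0.33 to -0.27, limma adjusted p = 0.0542 to 0.0855), SQSTM1, the autophagy receptor p62 (-0.63, limma adjusted p = 7.82e-05), SLC7A11, the cystine transporter (-0.97, limma adjusted p = 0.00189), and ATF3, a stress-induced leucine zipper factor (-0.85, limma adjusted p = 0.00895). ATF3, DDIT4 and SQSTM1 also had interaction values below 0 (-1.09, -0.71 and -0.60; limma adjusted p = 0.025, 0.00375 and 0.00192), and the call of ATF3 was lost without shNTC replicate 2 at 20% O2, shISG20 replicate 1 or 2 at 20% O2, or shISG20 replicate 1 or 3 at 1% O2 (log2 -1.09 to -0.98, limma adjusted p = 0.0526 to 0.0603).

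Of the other subunits of eIF2, its exchange factor eIF2B and related factors, 11 of 12 were tested. At 1% O2 5 fell in shNTC and 7 in shISG20 cells and 0 rose in either (1 and 0 were higher with an unadjusted p below 0.05, and voom called 1 and 0). The shNTC count is 45.5% of the list, near the 38.1% of all rows called lower, and that of shISG20 63.6% beside 42.8%, with list medians of -0.30 and -0.42 beside -0.28 and -0.35. EIF2B3, the gamma subunit of eIF2B, fell from 50.9 ± 6.41 to 18.2 ± 2.36 TPM in shNTC cells (-1.43 and -1.93), EIF2B1, its alpha subunit, by 0.67 and 1.30, EIF2S3, the gamma subunit of eIF2, by 0.70 and 0.80, and EIF2S2, the beta subunit, by 0.43 and 0.42; the EIF2S2 calls were lost with median-of-ratios size factors. Between subclones 1 of 11 rose and 1 fell at 20% O2 (9.09% each), near the 5.05% and 6.55% of all rows. At 1% O2 0 rose (voom called 1) and 2 fell (18.2%), beside 4.25% and 9.66% of all rows. EIF2B1 rose (0.45) and the adaptor NCK1 fell (-0.27) at 20% O2, and EIF2S3 (-0.44) and EIF2B2 (-0.34), the beta subunit of eIF2B, fell at 1% O2. The call of EIF2B1 was lost without shNTC replicate 1 or 2 at 20% O2, or shISG20 replicate 1 or 2 at 20% O2 (log2 0.35 to 0.47, limma adjusted p = 0.0733 to 0.111). NCK1 lost its call without shNTC replicate 2 or 3 at 20% O2, shNTC replicate 2 at 1% O2, shISG20 replicate 1, 2 or 3 at 20% O2, or shISG20 replicate 1 at 1% O2 (log2 -0.29 to -0.25, limma adjusted p = 0.0504 to 0.118). EIF2S3 lost its call without shNTC replicate 2 at 1% O2, or shISG20 replicate 1 or 3 at 1% O2 (log2 -0.43 to -0.36, limma adjusted p = 0.0617 to 0.0797), and EIF2B2 without shNTC replicate 1 at 20% O2, shNTC replicate 1, 2 or 3 at 1% O2, shISG20 replicate 2 or 3 at 20% O2, or shISG20 replicate 1, 2 or 3 at 1% O2 (log2 -0.37 to -0.32, limma adjusted p = 0.0505 to 0.111).

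Listed beside the cytosolic synthetases were 5 other genes, AIMP1, AIMP2, EEF1E1, DTD1 and ASNSD1, not all of which act in tRNA charging. Of these 2 fell at 1% O2 in shNTC and 3 in shISG20 cells. The counts are 40.0% and 60.0% of the list, beside 38.1% and 42.8% of all rows, and the first is near its share. None, 0 of 5, was called different between the subclones at either oxygen level (at an unadjusted p below 0.05, 1 higher and 0 lower at 20% O2 and 0 higher and 0 lower at 1% O2; by voom, 0 higher and 0 lower at 20% O2 and 0 higher and 0 lower at 1% O2). Of all rows 11.6% at 20% O2 and 13.9% at 1% O2 were called in either direction, and 0 of 5 is near those shares. EEF1E1 (AIMP3), a scaffold of the multisynthetase complex, fell from 16.1 ± 4.11 to 6.05 ± 0.865 TPM in shNTC cells (-1.26 and -1.59). AIMP1, another scaffold, fell by 0.46 and 0.47, and AIMP2 by 0.74 in shISG20 cells; the shNTC call of AIMP1 was lost without shNTC replicate 2 at 20% O2, or shNTC replicate 2 at 1% O2 (log2 -0.36 to -0.35, limma adjusted p = 0.0533 to 0.0551), and all 3 calls with median-of-ratios size factors. The mitochondrial synthetases are separate genes from the cytosolic ones, apart from shared enzymes such as GARS1 and KARS1. Of 17 listed, 15 were tested; at 1% O2 6 fell in shNTC and 13 in shISG20 cells and 0 rose in either (0 with an unadjusted p below 0.05, and voom called 0). The shNTC count is 40.0% of the list, near the 38.1% of all rows, and that of shISG20 86.7% beside 42.8%. RARS2 (mitochondrial arginine) fell by 1.28 and 2.34, YARS2 (tyrosine) by 1.55 and 1.57, MARS2 (methionine) by 1.65 and 1.62, and WARS2 (tryptophan) by 1.19 in shISG20 cells. RARS2 and WARS2 were also lower in shISG20 than in shNTC cells at 1% O2 (-0.75, limma adjusted p = 0.0102, and -0.77, limma adjusted p = 0.00603). These 2 of 15 are 13.3% of the list, near the 9.66% of all rows called lower there. At 20% O2 0 of 15 were called between the subclones, by limma or voom, beside 11.6% of all rows in either direction by limma. In the mouse promoter table the core TGATGNAA stood in 7 of 23 other ATF4 targets (30.4%), and in 0 of 10 eIF2 and eIF2B genes, 0 of 4 genes of the list with AIMP1 and 0 of 14 mitochondrial synthetase genes. Over all genes of that table the share was 3.91%, and the counts of 0 are near it.

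Reads of several members were also counted on human pseudogene rows, so the level of the member's own row is uncertain. The shares below rest on reads recovered up to a divisor per row and would shift with it. Rows named as pseudogenes of ASNS held 99.8% of the reads of ASNS and those rows together; the share was 51.8% for MTHFD2, 38.1% for PSAT1, 34.0% for ATF4, 8.06% for SLC7A5, 7.80% for RARS1 and 7.33% for KARS1, and at most 1.5% for the 6 other members that have such a row. These rows moved with oxygen as follows. ASNSP1, which held 1715 reads where ASNS had 4, stood at 46.2, 45.9 and 34.7 TPM at 20% O2 and 16.9, 19.4 and 20.3 TPM at 1% O2 in shNTC cells. ASNSP1 in shISG20 cells stood at 46.0, 44.6 and 46.0 TPM at 20% O2 and 22.6, 21.9 and 23.7 TPM at 1% O2. All its libraries at 1% O2 lay below those at 20% O2, with falls of 1.11 and 0.97 (limma adjusted p = 8.28e-06 and 1.89e-05). ATF4P3 stood at 456, 453 and 455 TPM at 20% O2 and 212, 243 and 205 TPM at 1% O2 in shNTC cells. ATF4P3 in shISG20 cells stood at 461, 535 and 523 TPM at 20% O2 and 176, 174 and 188 TPM at 1% O2. It fell by 1.05 and 1.49, beside 0.97 and 1.57 for the ATF4 row. Between the subclones ATF4P3 differed by 0.15 at 20% O2 (limma adjusted p = 0.215) and fell by 0.29 at 1% O2 (limma adjusted p = 0.0213), a call lost without shNTC replicate 2 at 1% O2, or shISG20 replicate 1 or 2 at 1% O2 (log2 -0.28 to -0.22, limma adjusted p = 0.0598 to 0.0706). ATF4P4 rose by 0.34 at 20% O2 (limma adjusted p = 0.0341) and fell by 0.34 at 1% O2 (limma adjusted p = 0.0311). Its call at 20% O2 was lost without shNTC replicate 1 or 2 at 20% O2, or shISG20 replicate 1, 2 or 3 at 20% O2 (log2 0.25 to 0.38, limma adjusted p = 0.0534 to 0.115), and that at 1% O2 without shNTC replicate 1 or 3 at 1% O2, or shISG20 replicate 1 or 2 at 1% O2 (log2 -0.34 to -0.29, limma adjusted p = 0.0602 to 0.105). SLC7A5P1 fell by 0.43 at 20% O2 (limma adjusted p = 0.0494), where the SLC7A5 row was at -0.04 and not called, and by 0.53 at 1% O2 (limma adjusted p = 0.0182). Its call at 20% O2 was lost without shNTC replicate 1 or 2 at 20% O2, shNTC replicate 1 at 1% O2, shISG20 replicate 1 or 3 at 20% O2, or shISG20 replicate 1, 2 or 3 at 1% O2 (log2 -0.45 to -0.34, limma adjusted p = 0.0564 to 0.158), and that at 1% O2 without shNTC replicate 2 at 1% O2, or shISG20 replicate 1 at 1% O2 (log2 -0.47 to -0.43, limma adjusted p = 0.0668 to 0.0705). Both SLC7A5P1 calls, and the ATF4P4 call at 1% O2, were also lost by voom. MTHFD2P7 fell by 1.29 and 1.37, beside 1.20 and 1.15 for MTHFD2. PSAT1P1 fell by 0.58 in shNTC cells and was at -0.25 in shISG20 cells (limma adjusted p = 0.089), where the PSAT1 row had -0.53 and -0.45, both called.

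**Figure D5:**
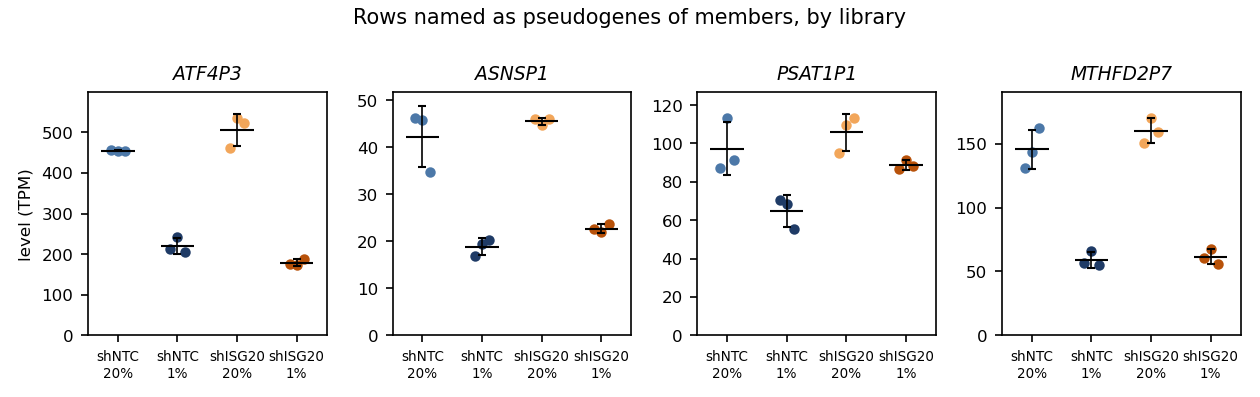
Level in TPM (vertical axis, from 0) of 4 rows named as pseudogenes of ATF4, ASNS, PSAT1 and MTHFD2 in each of the 12 libraries, by subclone and O2 level on the horizontal axis; points are libraries, and bars show the mean and SD over 3 libraries. ASNSP1 stood at 42.3 and 45.5 TPM at 20% O2 and at 18.9 and 22.7 TPM at 1% O2.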

How the data were processed

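The authors deposited TPM values per gene for 12 RNA sequencing libraries of EMT6 cells, 3 per group. FastQC, STAR, featureCounts and the human build GRCh38 are named, per the submitters' processing notes; their versions, and how counts became TPM, were not given in the sources. Extraction used TRIzol, with DNase, per the labels' protocols. Rows with at least 1 TPM in 3 libraries (14389 of 60683) were tested with limma 3.58.1 (R 4.3.3) on log2(TPM + 1), with a variance trend, 1 coefficient per group over all 12 libraries and Benjamini-Hochberg adjustment at 0.05; 8337 tested rows carried a mouse symbol and 254 a mouse synonym. Whole reads were recovered from the TPM values as the smallest whole numbers in the proportions of each row, so they hold up to a common divisor per row. By this rule 100% of the values above 0 came out whole (tolerance 1e-05), and limma voom on those reads was an alternative. Arithmetic and figures used Python 3.11.15, pandas 2.3.3 and matplotlib 3.10.9.

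The members and lists were chosen with earlier results of these data known. Library values were given for ATF4, ATF5, DDIT3, the 3 called members of each list with the smallest p per comparison and all members called in the interaction; QARS1 and the pseudogene rows were added after their values were seen. Of the other lists up to 3 called genes per comparison were named; their interaction values and further genes were likewise added. Some listed genes are not reported here. Errors are SD over n = 3 libraries, or limma's SE.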

Additional observations from a re-analysis of the deposited data

Results flagged for a closer look

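The log2 change from 20% to 1% O2 differed between the shISG20 and shNTC subclones, by the interaction term of limma with adjusted p under 0.05, for 12 of the 43 tested genes. Of all tested rows 6.93% were called in either direction and 4.31% below 0, and 15.2% in either direction among rows of mouse genes alone. The calls of DDIT3 and SHMT2 were the less stable, lost in 10 and 5 of the 12 refits without 1 library. The ATF4-pathway genes were ATF4 (-0.60), DDIT3 (-0.49), PPP1R15A (-1.51), PSPH (-0.64), SHMT2 (-0.45), SLC7A5 (-0.62). The synthetase genes were AARS1 (-0.56), LARS1 (-0.79), NARS1 (-0.40), SARS1 (-0.26), WARS1 (-0.99), YARS1 (-0.35). Each value is the change in shISG20 minus that in shNTC cells, and all 12 lay below 0. The shISG20 libraries at 1% O2 gave the lowest group mean for each of the 12 except YARS1, whose means at 1% O2 were 59.0 TPM with shNTC and 59.2 TPM with shISG20. ATF4, WARS1 and SARS1 were higher in shISG20 cells at 20% O2 and lower at 1% O2, both called.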

How the results depend on the processing

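Counts of calls in both directions together stayed within 1.5 times the reported ones except as follows. In shISG20 against shNTC cells at 20% O2, ATF4-pathway calls went from 3 to 7 by voom and 7 in rows of mouse genes alone, the latter an alternative chosen after seeing the data, and synthetase calls from 7 to 11 by voom, 3 with no variance trend and 4 to 7 without 1 library. The shares of all rows called there were 17.2% by voom, 19.8% in rows of mouse genes alone and 10% with no variance trend. At 1% O2, with only the groups compared, ATF4-pathway calls went from 9 to 5, synthetase calls from 10 to 6 and calls over all rows from 2001 to 957. Interaction calls over all rows went from 997 to 1835 by voom. Without 1 library, calls over all rows were 1087 to 1727 and 1155 to 1889 between subclones at 20% and 1% O2, and 595 to 1043 for the interaction, with the counts over 1.5 times lower being 1087 at 20% O2 without shISG20 replicate 2, 1155 and 1319 at 1% O2 without shNTC replicate 2 or shISG20 replicate 3, and, for the interaction, 655, 595 and 632 without shNTC replicate 1, shISG20 replicate 2 or shISG20 replicate 3 at 20% O2 and 635 without shNTC replicate 2 at 1% O2; those of the ATF4-pathway genes were 2 to 4 and 6 to 9 between subclones at 20% and 1% O2. The cause was not tested.

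Of 117 called values of members, median-of-ratios size factors turned 7 around and ended 12 other calls, no variance trend ended 11, only the groups compared 11 of 105, quantile normalization 6, no filter 3, voom 1, rows of mouse genes alone 1 and a pseudocount of 0.1 none. With oxygen, median-of-ratios size factors gave DDIT3 0.02, GARS1 0.33, KARS1 0.007 and SARS1 0.13 in shNTC, and GARS1 0.23, KARS1 0.094, VARS1 0.015 and FARSA 0.027 in shISG20 cells; voom gave GARS1 0.14 in shNTC. NCK1 and EIF2B2 in shISG20 cells turned to 0.31 and 0.30 under quantile normalization, and to 0.31 and 0.39 by median-of-ratios. PCK2 in shNTC turned to 0.31 by median-of-ratios. TWIST1 in shNTC turned to 0.28 likewise. Split by direction, all-row calls higher and lower at 1% O2 went from 1847 and 5479 to 3313 and 3209 by median-of-ratios and 2913 and 3586 by quantile normalization in shNTC, and from 2021 and 6152 to 3782 and 3822, and 3338 and 3950, in shISG20. Between subclones at 1% O2 they went from 611 and 1390 to 1029 and 1083 by median-of-ratios and 337 and 620 with only the groups compared, and those higher to 1027 by voom. Calls higher went from 727 to 1249 at 20% O2 by voom, and from 377 to 595 by median-of-ratios and 698 by voom in the interaction, where calls lower went from 620 to 1137 by voom.

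Replicates with the same number did not deviate together (correlations of -0.042 to 0.015 over 12 pairs), so the numbers were not taken to pair the libraries. With a replicate block, ATF4-pathway calls were 2, 9, 20, 22 and 5, and synthetase calls 7, 11, 16, 18 and 6, in the order subclones at 20% O2, subclones at 1% O2, oxygen in shNTC, oxygen in shISG20 and interaction. In the same order that fit called 9.99%, 12.1%, 49.5%, 56.2% and 5.05% of all rows. The calls ended by the block were DDIT3 in the interaction and EIF2AK4 between subclones at 20% O2.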
